A study of Mus musculus with 9 samples.

Results

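Genes that the transcription factor p53 activates were followed in mouse thymus cells depleted of CD45-positive cells, before and after whole-body irradiation. They were taken from a list of 32 genes, the members, and read through every probe set of the array that is annotated to exactly 1 gene symbol, that symbol being on the list. Such probe sets were found for 29 of the 32 members, 58 probe sets in all, among 34945 probe sets and 18193 genes with a single symbol. Trp53, which encodes p53 itself, and Bax and Gdf15 were not analysed here. Plk3, a polo-like kinase gene, and Tnfrsf10b, a death receptor gene, lay below a log2 value of 4 on all 9 arrays and were not tested. Their probe sets ran from 2.28 to 2.64 and from 2.28 to 2.87. The remaining 27 members were tested.

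The untreated group held thymus of female C57BL/6J mice aged 6 to 8 weeks with no damage. The day 4 and day 7 groups held thymus of such mice harvested 4 or 7 days after SL-TBI, read here as sublethal total body irradiation, at 550 cGy from a cesium source and with no hematopoietic rescue. Each group had 3 arrays, the depletion used magnetic beads, and cells of several mice were pooled. The protocol calls the pooled cells ECs and does not spell this out, while the labels call all samples stromal cells. No label tells if each of the 3 samples per group was its own pool, so the p-values measure the spread between these samples, which may be technical.

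p53 is a transcription factor that cells keep at a low level through the ubiquitin ligase MDM2 and its partner MDM4. DNA damage activates kinases that release p53 from this control, and p53 then binds DNA as a tetramer and switches on genes of cell cycle arrest, apoptosis, DNA repair and metabolism. Several of its targets, among them Mdm2, Ppm1d and Ccng1, feed back to lower p53 activity. Thymocytes are known as cells that die readily by p53-dependent apoptosis after irradiation, whereas stromal cells of the thymus are more resistant.

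The DNA to which p53 binds is a pair of 10-base units, each with the core CNNG. A search of the promoter windows of RefSeq (GRCm38.p6), from 250 bases before to 50 bases after each gene start, covered 22 of the 29 members. It asked for the p53 response element of 20 bases with no spacer, at most 3 mismatches to the consensus and both cores intact, and since the element is palindromic the search covers both strands. Windows of 5 members held a match, Ccng1, Rps27l, Aen, Bbc3 and Sesn1, and 1.38% of all 32851 windows did. The 22 members have 29 windows, so a count of members and a share of windows are unlike measures. With at most 2 mismatches, Ccng1 and Rps27l remained, against 0.326% of all windows. A match is a description of letters and not a measured binding site, and the mismatch limit was chosen with these windows in view. These windows are shown because they hold the element, in members that read higher and in members that read lower after irradiation. Capitals mark the matched element, 5′ to 3′ on the strand of the gene.
Ccng1, minus strand, chr11:40755237-40755536: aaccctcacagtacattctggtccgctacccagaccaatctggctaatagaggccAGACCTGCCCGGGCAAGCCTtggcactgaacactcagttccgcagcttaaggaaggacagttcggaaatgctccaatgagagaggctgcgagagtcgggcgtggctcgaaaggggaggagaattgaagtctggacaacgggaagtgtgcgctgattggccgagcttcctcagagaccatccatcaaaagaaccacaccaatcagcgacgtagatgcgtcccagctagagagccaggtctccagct
Rps27l, plus strand, chr9:66946163-66946462: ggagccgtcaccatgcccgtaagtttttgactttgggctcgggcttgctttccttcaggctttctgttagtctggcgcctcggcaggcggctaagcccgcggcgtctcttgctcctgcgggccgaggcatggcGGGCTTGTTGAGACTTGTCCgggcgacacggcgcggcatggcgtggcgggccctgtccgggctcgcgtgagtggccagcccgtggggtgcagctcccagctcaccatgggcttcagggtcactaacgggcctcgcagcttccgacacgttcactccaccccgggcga
Aen, plus strand, chr7:78895808-78896107: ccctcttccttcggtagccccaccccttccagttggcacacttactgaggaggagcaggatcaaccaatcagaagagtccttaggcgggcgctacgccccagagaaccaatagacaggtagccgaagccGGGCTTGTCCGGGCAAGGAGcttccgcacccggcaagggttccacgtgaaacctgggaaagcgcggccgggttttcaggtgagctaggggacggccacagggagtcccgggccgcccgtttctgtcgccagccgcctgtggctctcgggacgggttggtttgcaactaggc
Bbc3, plus strand, chr7:16309333-16309632: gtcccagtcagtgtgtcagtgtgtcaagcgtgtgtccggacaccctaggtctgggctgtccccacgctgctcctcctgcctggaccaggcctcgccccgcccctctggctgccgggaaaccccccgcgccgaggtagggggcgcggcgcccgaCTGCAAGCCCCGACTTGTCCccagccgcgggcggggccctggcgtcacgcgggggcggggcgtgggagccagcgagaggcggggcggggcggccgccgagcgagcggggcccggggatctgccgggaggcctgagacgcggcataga
Sesn1, plus strand, chr10:41887189-41887488: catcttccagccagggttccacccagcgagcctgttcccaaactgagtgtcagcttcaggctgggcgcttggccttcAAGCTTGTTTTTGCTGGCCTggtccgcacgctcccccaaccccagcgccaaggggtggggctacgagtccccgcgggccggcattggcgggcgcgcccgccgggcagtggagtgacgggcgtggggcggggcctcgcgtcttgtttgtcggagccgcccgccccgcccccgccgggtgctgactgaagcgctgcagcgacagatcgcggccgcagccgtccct
The element starts 195 bases upstream of the gene start in Ccng1, 117 in Rps27l, 121 in Aen, 97 in Bbc3 and 173 in Sesn1. It holds 1 mismatch in Ccng1 and in Rps27l and 3 in each of the other windows shown. Aen has a further window, not shown, where the same element begins at base 11 counted from another gene start. Ccng1, Rps27l and Aen read higher after irradiation and Bbc3 and Sesn1 lower, as the values below give. The falls are weak calls. That of Bbc3 was lost under 15 of 21 alternative settings on each day, and that of Sesn1 under 5 at day 4 and 10 at day 7.

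The cell makeup of the preparation differed between the groups. The mean of 12 thymocyte markers lay between 9.36 and 9.73 on the untreated arrays, 3.38 and 3.71 at day 4, and 6.92 and 7.08 at day 7. Ptprc, which encodes CD45, read 12.22 ± 0.25, 4.64 ± 0.53 and 9.51 ± 0.22 (SD, n = 3) in untreated, day 4 and day 7, the T cell receptor gene Cd3e 9.52 ± 0.26, 5.57 on all 3 arrays, and 6.99 ± 0.06, and Mki67, a gene of dividing cells, 11.16 ± 0.62, 4.95 ± 0.04 and 9.09 ± 0.17. At day 4, 7 of these 12 markers were below a log2 value of 4 on every array. The mean of 8 genes of dividing cells ran from 8.72 to 9.30, from 4.13 to 4.28 and from 7.36 to 7.60 in the same order. The 9 fibroblast markers rose, from means of 10.25 to 10.85 in untreated to 11.69 to 12.15 at day 4 and 11.32 to 11.62 at day 7. The mean of 12 epithelial markers ranged from 9.95 to 10.39, 10.45 to 10.63 and 10.18 to 10.29. Of these markers 7 were higher (58.3%, beside 41.8% of all genes tested) and 1 lower (8.33%, beside 21.4%) at day 4 (Krt5 by 1.74, Krt14 by -0.82). At day 7, 7 were higher (58.3%, beside 32.1%) and 3 lower (25%, beside 22.0%), the 3 being Cldn4, Krt14 and Cldn3. Not called was Epcam, an epithelial surface marker, at 11.18 ± 0.45, 11.08 ± 0.13 and 10.79 ± 0.08 (SD, n = 3). The endothelial mean was 5.64 on untreated replicate 3 and 3.87 and 4.04 on the other untreated arrays, 4.80 to 5.51 at day 4 and 7.09 to 7.15 at day 7. The mean of 8 macrophage markers lay between 3.57 and 3.98 on all arrays, with 5 of them below 4 on every array of each group. Of the 3 tested, C1qb was lower (-0.81 and -0.93) and Mertk higher (1.22 and 1.71) at day 4 and day 7, and Csf1r was not called. The mean of 5 erythroid markers was 4.85 to 5.40 in untreated, 2.96 to 3.08 at day 4 and 3.62 to 3.80 at day 7. The difference between the 3-prime and 5-prime control probe sets of Actb, a sign of RNA quality, ran from 2.16 to 2.45 in untreated, 3.01 to 3.32 at day 4 and 2.30 to 2.71 at day 7. In such bulk samples, fewer cells of a type and less RNA per cell cannot be told apart. The part of cell makeup and RNA quality in the differences below was not tested.

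**Figure D1:**
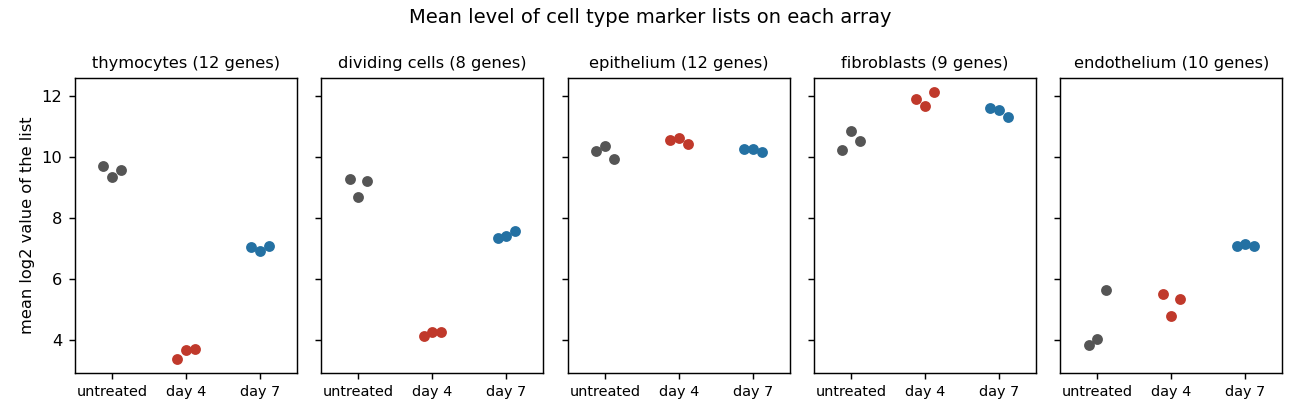
Mean log2 value of 5 marker lists on each of the 9 arrays (points), by group on the x axis. Thymocyte and dividing-cell means are lowest at day 4 and lie between the other groups at day 7, fibroblast means are highest at day 4, and untreated replicate 3 has the highest untreated endothelial mean, 5.64.

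At day 4 the members split into a group that rose and a group that fell. Of the 27 tested members 14 were higher than untreated, or 51.9%, beside 41.8% of all 10937 genes tested, and 10 were lower, or 37.0%, beside 21.4%. By at least 2-fold, 8 rose (29.6%, beside 14.5% of all genes) and 3 fell (11.1%, beside 8.75%). In either direction 24 of 27 were called (88.9%, beside 63.2%). The arrays of the groups did not overlap for 23 members (85.2%, beside 67.7%), 14 of them higher (beside 44.7%) and 9 lower (beside 22.9%). The median difference was 0.39 for the members and 0.20 for all genes. The share that rose is near the background, so the count of rises is not by itself a result about these genes. The members that rose by at least 2-fold were Ddit4l, Eda2r, Zmat3, Dcxr, Phlda3, Polk, Ccng1 and Aen, and those that fell by as much were Btg2, Pmaip1 and Fas. Eda2r was tested only because its irradiated arrays reached a log2 value of 4. Its place in the counts of rises and of groups without overlap is therefore no support for them.

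These directions rest on how the arrays are scaled. With each array centred on the genes tested, 14 members were higher and 11 lower at day 4, beside 3906 and 2847 of all genes. With centring on the epithelial list 10 were higher and 12 lower, beside 2214 and 3806 of all genes, whose median moved by -0.37. With centring on the fibroblast list, which itself rose, the median of all genes moved by -1.36. There 2 members, Eda2r and Ddit4l, were called higher and 18 lower, beside 235 and 8729 of all genes. The loss of rises was thus shared by the genes at large. For Eda2r, whose untreated arrays lie below the detection level, the bound was then at least 1.26-fold. The 10 members lower at day 4 as deposited were lower under each of these 3 centrings. Each of the 3 moved the median of all genes down at day 4, centring on the genes tested by -0.11. A fall could therefore not turn to a rise under them, so this is no check of the falls. The rises of Ccng1, Polk, Ei24 and Aen turned to -0.080, -0.065, -0.38 and -0.35 under fibroblast centring and were not called. Those of Zmat3, Dcxr and Phlda3 shrank to 0.14, 0.033 and 0.011 and were not called either, and those of Sesn2, Rrm2b, Xpc, Ercc5 and Rps27l became falls, of which Xpc at -0.97 was the largest.

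**Figure D2:**
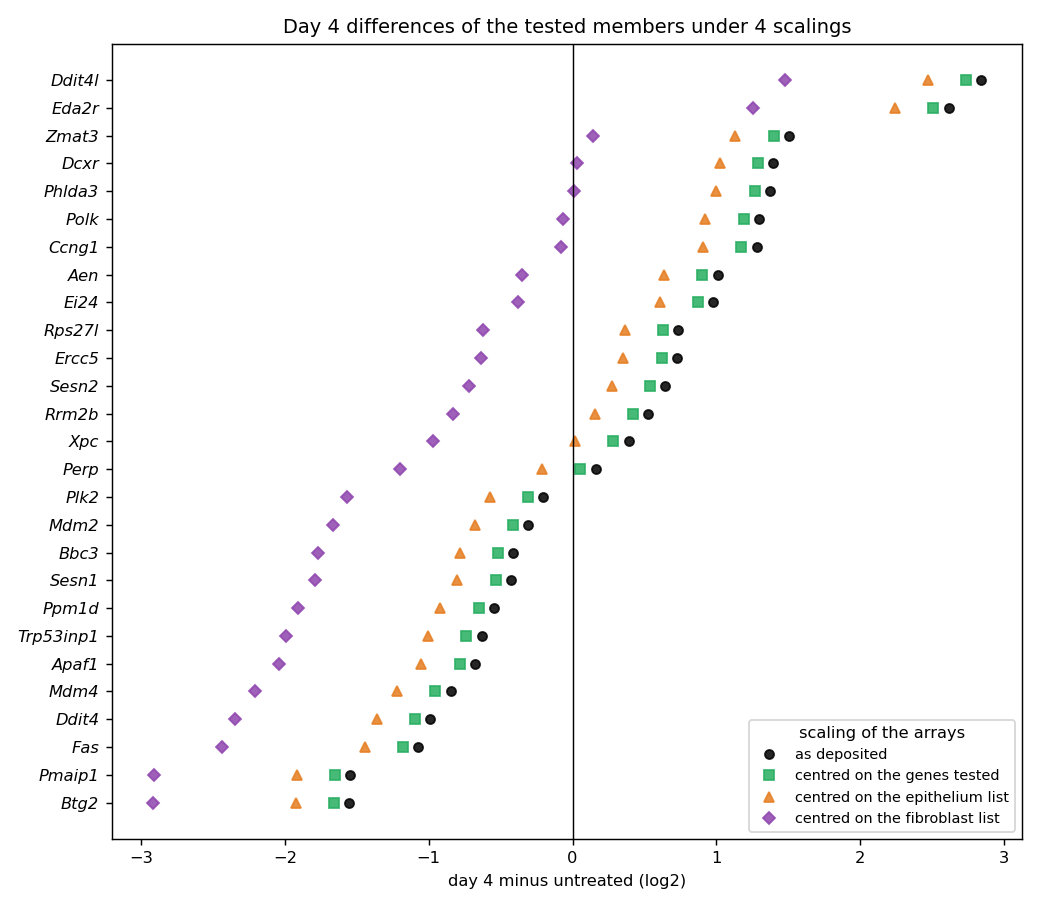
Day 4 minus untreated difference (log2, x axis) of the 27 tested members (y axis) as deposited and after centring each array on the genes tested, on the epithelial list or on the fibroblast list. The difference of Ddit4l is above 0 under all 4 scalings, the points of Eda2r are fitted against untreated values below the detection level and exceed its bound, and Xpc moves from 0.39 to -0.97 under fibroblast centring.

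At day 7, 12 members were higher than untreated (44.4%, beside 32.1% of all genes) and 8 were lower (29.6%, beside 22.0%). By at least 2-fold, 4 rose, Eda2r, Ddit4l, Dcxr and Aen (14.8%, beside 8.60%), and 3 fell, Pmaip1, Mdm4 and Ddit4 (11.1%, beside 9.07%). Eda2r again counts here only through its irradiated arrays. In either direction 20 of 27 were called (74.1%, beside 54.1%). The groups did not overlap for 20 members (beside 62.4%), 12 higher (beside 37.5%) and 8 lower (beside 24.9%). The median difference was 0.21, and 0.09 for all genes. Both irradiated groups were set against the same 3 untreated arrays, so their differences are given side by side and not counted together. Under fibroblast centring the median over all genes shifted by -0.95. There 1 member, Eda2r, was called higher at day 7 (bound of at least 1.30-fold) and 15 lower, beside 326 and 7692 of all genes.

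Between the days, 9 members were lower at day 7 than at day 4 (33.3%, beside 17.6% of all genes) and 4 were higher (14.8%, beside 9.78%). By at least 2-fold, 1 member was higher, Btg2 (beside 3.82% of all genes), and 1 lower, Ddit4l (beside 3.35%). In either direction 13 of 27 were called (beside 27.3%). The groups did not overlap for 19 members (70.4%, beside 51.7%), 5 higher (beside 17.9%) and 14 lower (beside 33.8%). The 9 were Ddit4l, Zmat3, Phlda3, Ercc5, Polk, Ei24, Sesn2, Ccng1 and Xpc, and the 4 were Btg2, Plk2, Apaf1 and Fas. The count of 9 fell to 5 without day 4 replicate 1, day 4 replicate 2 or day 7 replicate 1, and to 4 without day 7 replicate 2. The count over all genes fell too, from 1921 to 1148, 1090, 1267 and 1010 in the same order. The count of members was 1 under epithelial and under fibroblast centring, where Ddit4l alone stayed lower, beside 546 and 245 of all genes. The 4 higher members stood beside 10 of 12 thymocyte markers and 8 of 8 dividing-cell genes and 8 of 9 endothelial markers that were also higher at day 7 than at day 4, and the part of these cells was not tested.

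**Figure D3:**
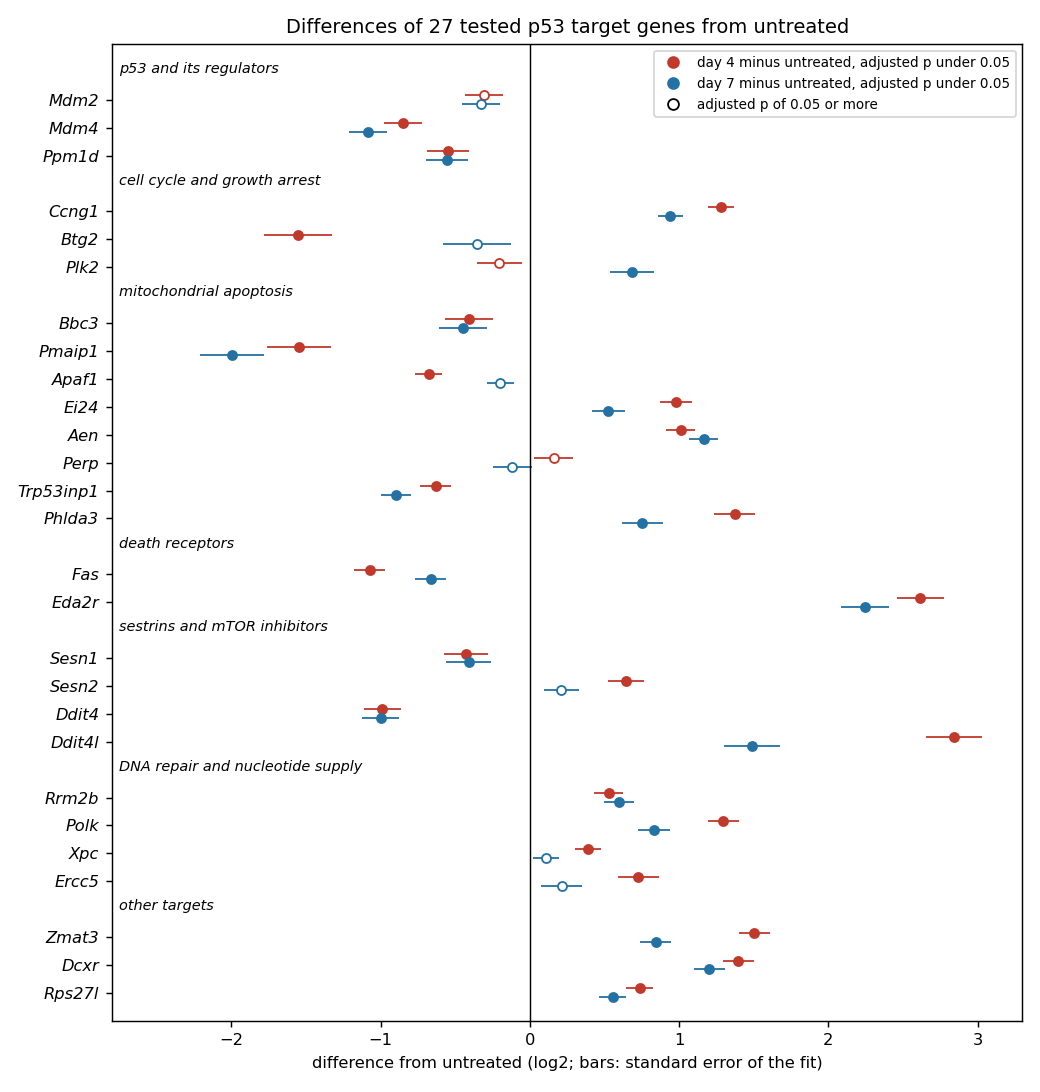
Difference from untreated (log2, x axis) of the 27 tested members by role, at day 4 (red) and day 7 (blue), with the standard error of the fit as bars and open points for an adjusted p of 0.05 or more. Eda2r and Ddit4l lie farthest to the right and Pmaip1 farthest to the left at day 7, values as deposited; the points of Eda2r are fitted against untreated values below the detection level, and under fibroblast centring Eda2r and Ddit4l alone are called higher at day 4.

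Mdm2, Mdm4 and Ppm1d, the tested members grouped here as regulators of p53, were not called higher after irradiation. Mdm2, the ubiquitin ligase that marks p53 for degradation and is itself a p53 target, read 7.40, 7.14 and 7.27 in untreated, 6.87, 7.16 and 6.87 at day 4 and 6.79, 6.92 and 7.13 at day 7. The day 4 and untreated arrays overlapped and the day 7 arrays lay just below the untreated ones. The differences were -0.31 (SE 0.13, adjusted p 0.061) and -0.33 (SE 0.13, adjusted p 0.056). Neither passed the threshold, and a fall was called at day 4 under 7 of 21 alternatives and at day 7 under 7 of 21. A second Mdm2 probe set, tested on its own, differed by 0.23 at day 4 (adjusted p 0.483) and 0.0056 at day 7 (adjusted p 0.989).

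Mdm4, which encodes the MDM2 partner that blocks p53, was lower on both days. It read 9.05, 8.72 and 9.15 in untreated, 8.30, 8.08 and 7.99 at day 4 and 7.87, 7.94 and 7.86 at day 7. All 6 irradiated arrays lay below all untreated arrays. The difference was -0.85 (SE 0.13, adjusted p 4.45e-04) at day 4 and -1.08 (SE 0.13, adjusted p 2.15e-04) at day 7, and a second Mdm4 probe set gave -1.08 and -0.99. Ppm1d, a phosphatase gene that dampens the damage response, read 6.61, 6.58 and 6.56, then 5.97, 6.29 and 5.85, then 5.91, 6.28 and 5.89. It fell by 0.55 on the log2 scale on each day (adjusted p 0.0084 and 0.0099), with no overlap. Its dimmer probe set differed by 0.047 at day 4 (adjusted p 0.733) and fell by 0.41 at day 7 (adjusted p 0.013).

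The members of cell cycle arrest went different ways. Ccng1, encoding cyclin G1, a feedback regulator of the p53 and MDM2 pair, read 11.03, 11.07 and 10.91 in untreated, 12.23, 12.29 and 12.34 at day 4 and 11.87, 11.96 and 12.01 at day 7. The 3 groups did not overlap, with day 4 highest. Relative to untreated the rise was 2.43-fold at day 4 (1.28, SE 0.08, adjusted p 4.0e-06) and 1.92-fold at day 7 (0.94, adjusted p 5.9e-05), with -0.080 and -0.0097 under fibroblast centring. Its other 2 probe sets gave 0.95 and 1.09 at day 4 and 0.55 and 1.0 at day 7. This gene carries the element with 1 mismatch shown above.

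Btg2, an antiproliferative gene of the BTG family, read 10.65, 10.78 and 11.01 in untreated, 8.74, 9.63 and 9.39 at day 4 and 10.69, 10.50 and 10.18 at day 7. Day 4 arrays lay below all others, and untreated and day 7 arrays overlapped. The fall at day 4 was 2.94-fold (-1.55, SE 0.23, adjusted p 3.6e-04), and at day 7 the difference of -0.35 was not called (adjusted p 0.216). From day 4 to day 7 it rose by 1.20 (adjusted p 0.0060), and its second probe set gave -2.19 at day 4. Plk2, a polo-like kinase gene of the stress response, was also higher at day 7 than at day 4, by 0.89. Unlike Btg2, Plk2 was called against untreated at day 7 and not at day 4. It read 6.26, 6.85 and 6.63, then 6.35, 6.47 and 6.30, then 7.28, 7.39 and 7.12, so that the day 7 arrays stood above all others. Its difference was -0.20 at day 4 (adjusted p 0.255) and 0.68 at day 7 (SE 0.15, adjusted p 0.0044), the latter turning to -0.27 under fibroblast centring. The endothelial markers were also highest at day 7, with 9 of 9 tested markers higher than untreated (beside 32.1% of all genes). The part of endothelial cells in the Plk2 value was not tested.

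**Figure D4:**
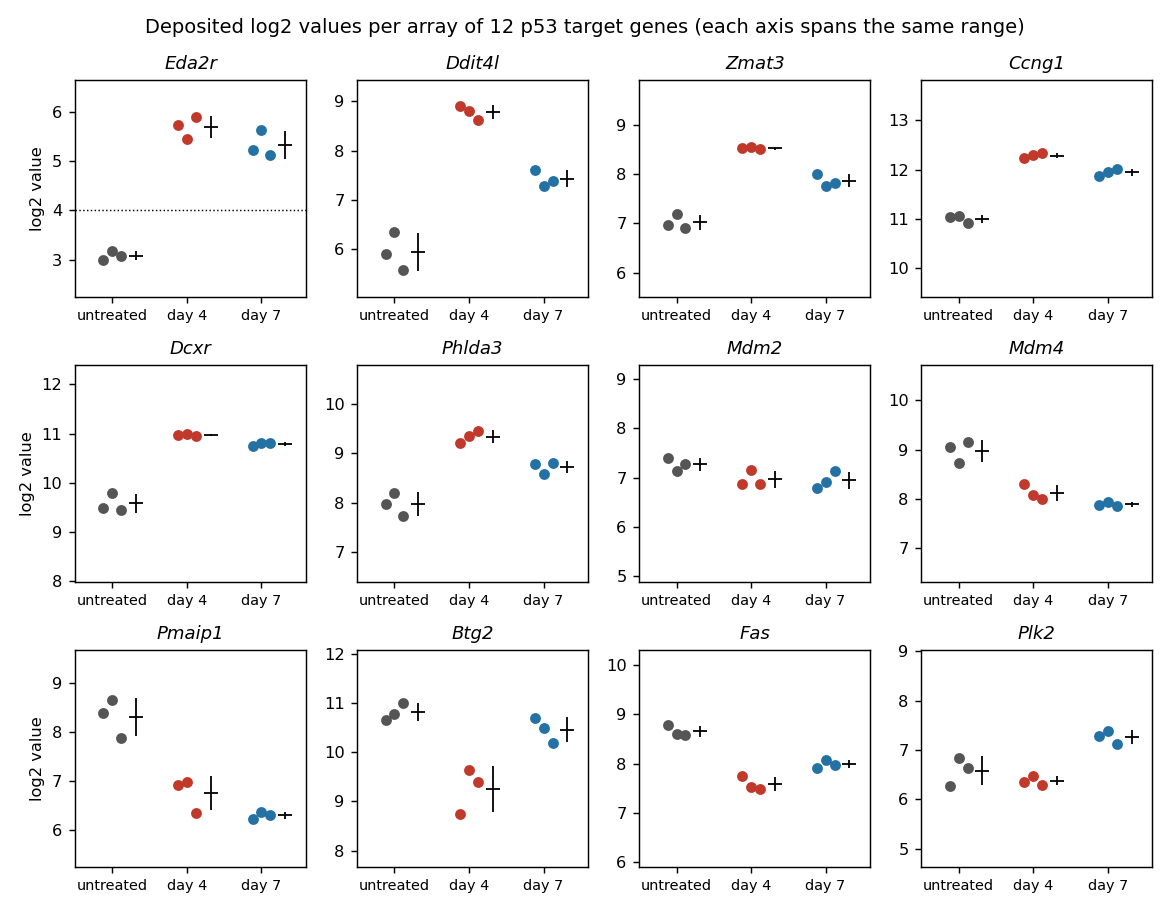
Deposited log2 values of 12 members on each array (points, by group on the x axis), with the group mean and SD (n = 3) beside them and a dotted line at the detection level of 4 for Eda2r. Eda2r is below 4 on all untreated arrays and above 5 on all irradiated ones, Btg2 is low at day 4 alone, and Plk2 is high at day 7 alone; the sign of the day 7 difference of Plk2, Phlda3, Ccng1 and Zmat3 turns under fibroblast centring.

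Of 8 tested members grouped here under mitochondrial apoptosis, 3 rose at day 4 (37.5%, beside 41.8% of all genes) and 4 fell (50%, beside 21.4%). The grouping is broad and takes in genes with other roles, as given below. The 3 that rose were Ei24, Aen and Phlda3, while Pmaip1, Bbc3, Apaf1 and Trp53inp1 fell. Pmaip1, which encodes the BH3-only protein NOXA, read 8.39, 8.64 and 7.87 in untreated, 6.93, 6.98 and 6.36 at day 4 and 6.23, 6.37 and 6.31 at day 7. Every irradiated array was below every untreated array, and day 4 and day 7 overlapped. The fall was 2.92-fold at day 4 (-1.55, SE 0.22, adjusted p 2.7e-04) and 3.99-fold at day 7 (-1.997, SE 0.22, adjusted p 1.4e-04). Between the days Pmaip1 differed by -0.45 (adjusted p 0.150). Thymocyte markers also fell on both days, and their part in the fall of Pmaip1 was not tested.

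Bbc3 encodes PUMA, another BH3-only protein. It read 4.66, 5.04 and 5.38 in untreated, 4.63, 4.57 and 4.66 at day 4 and 4.66, 4.52 and 4.57 at day 7. The groups overlapped in both comparisons. The same value, 4.66, recurred on untreated replicate 1, day 4 replicate 3 and day 7 replicate 1. The values 4.57 at day 4 and at day 7 were also identical, so the small spread of the irradiated groups may not be informative. The differences, -0.41 (adjusted p 0.049) and -0.45 (adjusted p 0.041), were past the threshold as fitted. Each call was lost under 15 of 21 alternatives, and both together under 14, with -0.23 and -0.27 without untreated replicate 3. The window of this gene holds the element with 3 mismatches.

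Apaf1, the scaffold of the apoptosome, read 8.11, 7.85 and 7.93 in untreated and 7.24, 7.27 and 7.34 at day 4, without overlap. Its fall was 1.60-fold at day 4 (-0.68, SE 0.09, adjusted p 2.4e-04). At day 7 it read 7.77, 7.82 and 7.72, below the untreated arrays but not called (-0.20, adjusted p 0.10), and above day 4 by 0.48 (adjusted p 0.0064). Trp53inp1, a p53-induced nuclear protein gene, read 12.60, 12.29 and 12.56, then 11.84, 11.92 and 11.81, then 11.60, 11.51 and 11.66. The irradiated arrays were all lower than the untreated ones. The differences were -0.63 (adjusted p 6.6e-04) and -0.90 (adjusted p 1.8e-04).

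Phlda3, an inhibitor of AKT signalling that p53 induces, read 7.98, 8.20 and 7.72 in untreated, 9.20, 9.36 and 9.46 at day 4 and 8.78, 8.58 and 8.80 at day 7. The 3 groups did not overlap. It was 2.59-fold higher at day 4 (1.37, SE 0.14, adjusted p 3.7e-05) and 1.69-fold at day 7 (0.75, adjusted p 0.0017), and 0.62 lower on the log2 scale at day 7 than at day 4 (difference -0.62, adjusted p 0.011). Under fibroblast centring the values were 0.011 and -0.20. Aen, encoding a nuclease that p53 induces in apoptosis, read 7.34, 7.31 and 7.09, then 8.27, 8.18 and 8.31, then 8.34, 8.44 and 8.44. It rose by 1.01 at day 4 and 1.16 at day 7 (adjusted p 2.8e-05 and 4.0e-05), and a second probe set rose by 0.70 and 0.50. Another probe set was below 4 on all untreated arrays and passed the filter on dim genes through the irradiated groups alone. It gave rises of at least 1.49-fold and at least 1.56-fold. Under fibroblast centring Aen differed by -0.35 at day 4.

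Ei24, a p53-induced gene of the endoplasmic reticulum, read 9.06, 9.36 and 8.97 in untreated, 10.15, 10.02 and 10.16 at day 4 and 9.62, 9.66 and 9.68 at day 7. The groups did not overlap. The rise was 1.97-fold at day 4 (0.98, SE 0.11, adjusted p 8.2e-05) and 1.44-fold at day 7 (0.52, adjusted p 0.0037), and under fibroblast centring the differences were -0.38 and -0.43. Perp, a membrane protein of desmosomes that is also a target of the related factor p63, read 10.60, 10.81 and 10.41, then 10.73, 10.93 and 10.64, then 10.33, 10.57 and 10.56. Both irradiated groups overlapped the untreated one, while day 4 and day 7 did not overlap. The differences from untreated of 0.16 and -0.12 were not called (adjusted p 0.307 and 0.477). Perp was called lower on both days under fibroblast centring (-1.20 and -1.07).

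The 2 tested death receptors moved in opposite directions. Eda2r, encoding the ectodysplasin A2 receptor of the tumour necrosis factor receptor superfamily, read 2.99, 3.18 and 3.07 in untreated, 5.74, 5.46 and 5.89 at day 4 and 5.22, 5.64 and 5.12 at day 7. All untreated arrays lay below the detection level, so a lower bound is given: Eda2r was at least 3.24-fold higher at day 4 (adjusted p 2.5e-06) and at least 2.5-fold higher at day 7 (adjusted p 2.0e-05). It passed the filter on dim genes through the irradiated groups alone. Day 4 and day 7 arrays overlapped (difference -0.37, adjusted p 0.112). With fibroblast centring the bounds shrank to at least 1.26-fold and at least 1.30-fold, and its calls there rest on untreated values below the detection level.

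Fas, the receptor of Fas ligand, read 8.78, 8.60 and 8.59 in untreated, 7.74, 7.52 and 7.48 at day 4 and 7.92, 8.08 and 7.98 at day 7. The groups did not overlap, with day 4 lowest. The fall was 2.11-fold at day 4 (-1.07, SE 0.10, adjusted p 3.3e-05) and 1.58-fold at day 7 (-0.66, adjusted p 8.2e-04). Day 7 stood 0.41 above day 4 (adjusted p 0.020), a call lost without day 4 replicate 2 or 3 or day 7 replicate 2 or 3.

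Ddit4l and Ddit4 encode related inhibitors of the growth kinase mTORC1, and they moved apart. Ddit4l read 5.89, 6.35 and 5.58 in untreated, 8.91, 8.81 and 8.62 at day 4 and 7.61, 7.28 and 7.39 at day 7. The 3 groups did not overlap, and the day 4 arrays stood highest. It was 7.16-fold higher at day 4 (2.84, SE 0.19, adjusted p 4.0e-06) and 2.81-fold higher at day 7 (1.49, adjusted p 2.8e-04). The difference between the days was -1.35 (SE 0.19, adjusted p 0.0015). Its other 2 probe sets gave 3.08 and 2.93 at day 4 and 1.56 and 1.25 at day 7. Under fibroblast centring the day 7 difference was 0.54 and not called (adjusted p 0.061).

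Ddit4, a gene also induced by low oxygen and by glucocorticoids, read 9.65, 9.56 and 9.79 in untreated, 8.65, 8.78 and 8.61 at day 4 and 8.78, 8.42 and 8.80 at day 7. All irradiated arrays were lower, and the days overlapped. The fall was 1.98-fold at day 4 (-0.99, SE 0.12, adjusted p 1.4e-04) and 2.0-fold at day 7 (-1.0, SE 0.12, adjusted p 2.5e-04).

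The sestrins are stress proteins that restrain mTORC1 through the AMPK and GATOR pathways. Sesn2 read 6.14, 5.92 and 5.69 in untreated, 6.55, 6.57 and 6.57 at day 4 and 6.16, 6.00 and 6.22 at day 7. Day 4 stood above both other groups, which overlapped. It was 1.56-fold higher at day 4 (0.64, SE 0.12, adjusted p 0.0014) and 0.21 higher at day 7 (adjusted p 0.164), with -0.72 at day 4 under fibroblast centring. Sesn1 read 10.03, 9.89 and 10.38, then 9.60, 9.82 and 9.60, then 9.56, 9.60 and 9.91. Its differences of -0.43 (adjusted p 0.033) and -0.41 (adjusted p 0.045) lost their calls under 5 and 10 of 21 alternatives, and without untreated replicate 3 they were -0.29 and -0.27. The 4 tested Sesn1 probe sets disagreed in size. At day 4 they ran from -0.063 (adjusted p 0.700) to -2.03 (adjusted p 4.2e-05) for a dim probe set that read 5.96, 5.66 and 6.31 in untreated, 4.19, 4.08 and 3.55 at day 4 and 3.56, 3.65 and 3.44 at day 7.

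All 4 members of DNA repair and nucleotide supply rose at day 4, when 41.8% of all genes did, though Rrm2b, Xpc and Ercc5 were called lower and Polk turned to -0.065 under fibroblast centring. With epithelial centring Rrm2b (0.15, adjusted p 0.356), Xpc (0.018, adjusted p 0.929) and Ercc5 (0.35, adjusted p 0.132) lost their calls. Polk encodes a translesion DNA polymerase. It read 6.81, 6.89 and 6.89 in untreated, 8.00, 8.20 and 8.29 at day 4 and 7.76, 7.55 and 7.78 at day 7, without overlap, and was 2.46-fold higher at day 4 (1.30, SE 0.11, adjusted p 1.3e-05) and 1.78-fold at day 7 (0.83, adjusted p 3.0e-04). A dimmer Polk probe set was below 4 on all untreated arrays and passed the filter on dim genes through irradiated arrays alone. It read 4.48, 3.85 and 3.87 at day 4, mostly below that level too, and gave rises of at least 1.05-fold and at least 1.39-fold. Rrm2b, the p53-inducible subunit of ribonucleotide reductase, read 7.40, 7.48 and 7.34, then 8.01, 8.02 and 7.78, then 8.02, 7.91 and 8.10. It rose by 0.53 and 0.60 (adjusted p 0.0016 and 0.00115), and the irradiated arrays all stood above the untreated ones. Dimmer Rrm2b probe sets did not all do so. They gave 0.84, 0.85 and 0.13 at day 4, the last not called (limma, adjusted p 0.449), and 0.57, 0.56 and 0.69 at day 7.

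Xpc and Ercc5 encode a damage sensor and an endonuclease of nucleotide excision repair. Xpc read 6.98, 7.01 and 6.93, then 7.33, 7.34 and 7.41, then 7.07, 6.97 and 7.20. Its rise at day 4 was 0.39 (SE 0.09, adjusted p 0.0036), and its day 7 difference was 0.11 (adjusted p 0.306), on arrays that overlapped the untreated ones. Ercc5 read 6.79, 6.75 and 7.06, then 7.71, 7.68 and 7.39, then 7.28, 6.95 and 7.02. It rose by 0.73 at day 4 (SE 0.14, adjusted p 0.0015), and the day 7 difference was 0.21 (adjusted p 0.211). Both were lower at day 7 than at day 4 (-0.28 and -0.51, adjusted p 0.040 and 0.024). The call of Xpc was lost without untreated replicate 1, any 1 array of the day 4 group, or day 7 replicate 1 or 2, and that of Ercc5 without day 4 replicate 1 or 2 or day 7 replicate 2 or 3.

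The 3 remaining members rose on both days as deposited, though none of them was called higher under fibroblast centring. Zmat3, an RNA-binding zinc finger gene of the p53 response, read 6.96, 7.19 and 6.91 in untreated, 8.52, 8.56 and 8.50 at day 4 and 8.01, 7.76 and 7.82 at day 7. The groups did not overlap. It was 2.84-fold higher at day 4 (1.505, SE 0.10, adjusted p 5.4e-06) and 1.80-fold at day 7 (0.84, adjusted p 2.6e-04), 0.14 and -0.11 under fibroblast centring. Dcxr, a carbonyl reductase gene of sugar metabolism, read 9.49, 9.80 and 9.45, then 10.98, 10.998 and 10.95, then 10.74, 10.81 and 10.81. It was 2.63-fold higher at day 4 (1.39, adjusted p 7.9e-06) and 2.30-fold at day 7 (1.20, adjusted p 5.1e-05), with 0.033 and 0.25 under fibroblast centring.

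Rps27l, a ribosomal protein paralog that p53 induces, read 11.29, 11.45 and 11.25 in untreated, 12.02, 12.09 and 12.08 at day 4 and 11.85, 11.81 and 11.998 at day 7. All irradiated arrays stood above the untreated ones. It rose 1.67-fold at day 4 (0.74, SE 0.09, adjusted p 1.4e-04) and 1.47-fold at day 7 (0.56, adjusted p 0.0011), and under fibroblast centring the differences were -0.62 and -0.40. The other 2 probe sets gave 0.79 and 0.68 at day 4. This gene has a close paralog, Rps27, and 2 of its 3 probe sets are of the type that can share probes with other transcripts, so its level is uncertain.

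Other genes of the pathway were read from lists outside the members. Of 17 tested further p53 targets 8 rose and 6 fell at day 4 and 7 rose and 5 fell at day 7. These are 47.1% and 35.3% at day 4, beside 41.8% and 21.4% of all genes, and 41.2% and 29.4% at day 7, beside 32.1% and 22.0%. The medians were 0.22 and 0.23, beside 0.20 and 0.09 for all genes. Cdkn1a, the p53-induced cell cycle inhibitor, read 8.77, 9.30 and 8.52 in untreated, 10.68, 10.80 and 10.92 at day 4 and 10.39, 10.52 and 10.13 at day 7. All irradiated arrays lay above the untreated ones, by 1.93 and 1.48 (adjusted p 3.9e-05 and 3.3e-04). Ak1, an adenylate kinase gene, differed by 3.34 and 2.45, and Ephx1, an epoxide hydrolase gene, by 2.269 and 1.70. Ckap2, a mitotic spindle gene, fell by 3.36 at day 4 and by 1.37 at day 7, where all 3 arrays held the same value of 5.68, so that its spread there is not informative.

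Of 15 tested kinases and modifiers that act on p53, 4 were higher and 4 lower at day 4 (26.7% each, beside 41.8% and 21.4% of all genes). At day 7, 0 were higher and 5 lower (33.3%), beside 32.1% and 22.0% of all genes (limma, adjusted p under 0.05). Those that moved most were Chek1, a checkpoint kinase gene of replicating cells, at -2.79 and -1.50, the deacetylase gene Sirt1 at -1.29 and -1.44, and Usp7, encoding a deubiquitinase of p53 and MDM2, at -1.19 and -1.12. Trp63, the family member of epithelial cells, rose by 0.49 and 0.71. Of 5 caspase and cytochrome c genes, Casp9 rose by 1.15 and 0.96 and Cycs fell by 0.86 and 0.47. All 10 tested cell cycle genes that are lowered after p53 activation fell on both days, beside the fall of the dividing-cell and thymocyte markers. At day 4, 6 of them were below 4 on every array, and the median was -4.07 with these at their bounds (-4.21 as fitted). At day 7, with 2 at their bounds, it was -1.56 (-1.68 as fitted). Among them, Bub1 fell by at least 19.0-fold and Ccnb2 by at least 26.4-fold at day 4, and Birc5 differed by -5.40.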

How the data were processed

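RNA of CD45-depleted thymus cells was hybridised to 9 one-colour Affymetrix mouse arrays, 3 per group. Per the submitters' processing notes, the authors normalized the deposited values with GCRMA; its version is not given in the sources used here. That the deposited values are log2 was read from their range. A hybridisation array has no read depth, so the number of arrays limits the precision.

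Probe sets with exactly 1 gene symbol in the platform annotation were kept, without 64 control probe sets, and each gene was read from its brightest probe set. Genes at a log2 value of 4 or more on at least 3 arrays were tested, 10937 of 18193. The 3 groups were fitted together with limma 3.58.1 in R 4.3.3, and p-values were adjusted over all tested genes by the Benjamini-Hochberg method at 0.05. Where all arrays of a group lay below 4, a fold is a bound against the level of 4. The script was tested on simulated data with 200 changed genes. Array scaling, filter, probe set rule, variance settings, the replicate number as a block and each array left out were tried as alternatives. Members are named in full, together with Cdkn1a, Ptprc, Cd3e, Mki67 and Epcam and, of each list of other pathway genes, up to 3 with the largest difference among those called against untreated. The members and lists were chosen with earlier results of these data known. Promoter windows come from RefSeq, GRCm38.p6.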

Additional observations from a re-analysis of the deposited data

Results flagged for a closer look

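For 13 members the effect at day 7 differed from that at day 4 in the direct test of day 7 against day 4 (limma, adjusted p under 0.05). Lower at day 7 than at day 4 were Ddit4l (-1.35), Zmat3 (-0.66), Phlda3 (-0.62), Ercc5 (-0.51), Polk (-0.47), Ei24 (-0.45), Sesn2 (-0.43), Ccng1 (-0.34) and Xpc (-0.28), of which Ddit4l alone was called lower with the arrays centred on the epithelial or the fibroblast list. Higher at day 7 than at day 4 were Btg2 (1.20), Plk2 (0.89), Apaf1 (0.48) and Fas (0.41), and these 4 were called higher under both of those centrings too. Both centrings moved the median of all genes up between the days, by 0.31 (epithelial list) and 0.41 (fibroblast list). A rise could therefore not turn to a fall under them, so this is no check of the rises.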

How the results depend on the processing

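Of 1695 member values recomputed under 21 alternatives, 1493 kept their direction and their side of the threshold, 103 lost a call, 32 gained one and 67 changed sign, 9 of them called values, all with fibroblast centring. Leaving out 1 array gave 14 higher and 8 to 10 lower members at day 4, 12 to 13 and 6 to 9 at day 7, and 3 to 4 higher and 4 to 10 lower between the days. The count of members lower at day 7 than at day 4 was 1 with epithelial and 1 with fibroblast centring. Over all genes it was 546 and 245, from 1921 as deposited. With fibroblast centring 2 members were higher and 18 lower at day 4, beside 235 and 8729 of all genes. At day 7 they were 1 and 15, beside 326 and 7692 of all genes. No label says that the replicate numbers pair the samples. Of the same-number pairs, 3 of 9 had a correlation of deviations over 0.1. Best correlation with the own number in both other groups held for 0 of 9 arrays. These values show no clear pairing but cannot exclude it. With the number as a replicate block, 14 members were higher and 9 lower at day 4, 12 and 7 at day 7, and 4 and 8 between the days.

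Signs that changed at day 4 with fibroblast centring were those of Ccng1 (-0.080), Ei24 (-0.38), Aen (-0.35), Perp (-1.20), Sesn2 (-0.72), Rrm2b (-0.83), Polk (-0.065), Xpc (-0.97), Ercc5 (-0.63) and Rps27l (-0.62). At day 7 they were those of Ccng1 (-0.0097), Plk2 (-0.27), Ei24 (-0.43), Phlda3 (-0.20), Sesn2 (-0.74), Rrm2b (-0.35), Polk (-0.12), Xpc (-0.84), Ercc5 (-0.74), Zmat3 (-0.11) and Rps27l (-0.40). Between the days they were those of Mdm2 (0.39), Mdm4 (0.17), Ppm1d (0.40), Ccng1 (0.071), Bbc3 (0.37), Perp (0.13), Trp53inp1 (0.14), Eda2r (0.038), Ddit4 (0.40), Xpc (0.13), Dcxr (0.22) and Rps27l (0.23). With epithelial centring Perp turned to -0.21 at day 4, and between the days Mdm2 (0.29), Mdm4 (0.071), Ppm1d (0.30), Bbc3 (0.27), Perp (0.028), Trp53inp1 (0.041), Ddit4 (0.29), Xpc (0.025), Dcxr (0.11) and Rps27l (0.13) did so. The shift of the median of all genes is part of how these centrings are built.

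The other changes of sign were of values not called. With array weights Plk2 was 0.030 at day 4, and between the days Mdm2 was 0.0014 and Ppm1d 0.012. Centring on the genes tested gave Mdm2 0.053, Ppm1d 0.065, Bbc3 0.033 and Ddit4 0.059 between the days, quantile normalization gave 0.070, 0.083, 0.029 and 0.015 for the same genes, and the mean of all probe sets gave Sesn1 -0.26. Leaving out 1 array gave ranges between the days of -0.079 to 0.11 for Ddit4, -0.11 to 0.079 for Mdm2, -0.13 to 0.12 for Ppm1d, -0.0077 to 0.12 for Rrm2b and -0.091 to 0.093 for Sesn1. The cause was not tested.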
